A study of Mus musculus with 12 samples.

Results

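The genes described here are 7 genes of cell fusion and of the tetraspanin family in preosteoclasts with or without lysine-specific demethylase 1 (LSD1, the histone demethylase encoded by Kdm1a). They are Dcstamp, Ocstamp, Atp6v0d2, Cd9, Cd81, Cd63 and Cd82, chosen by symbol from the 57010 genes listed, and all 7 were among the 15425 genes that passed the filter on low counts. Marrow of female mice was grown for 2 days with M-CSF and RANKL, the cytokines that drive osteoclast differentiation. The mice were 2 months old by the series' design text, while the study's methods give an older age for the cells sequenced. The 12 libraries form 6 conditions of 2 libraries each, LSD1WT and LSD1cKO preosteoclasts from the mandible of ligated mice, the femur of ligated mice and the femur of unligated mice. A ligature was a silk thread left around a maxillary molar for 7 days to inflame the gum. The LSD1cKO mice carry floxed LSD1 and LysM-Cre, a recombinase under the Lyz2 promoter that acts in myeloid cells, so osteoclast precursors and macrophages in the culture are both targets. By the labels the libraries come from 9 mice, and from 3 of the ligated mice both bones were cultured.

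Osteoclasts form when mononuclear precursors of the monocyte lineage fuse into multinucleated cells. DC-STAMP (Dcstamp) and OC-STAMP (Ocstamp) are membrane-spanning proteins that RANKL induces and that precursors need to fuse, and ATP6V0D2 is the d2 subunit of the membrane-embedded V0 part of the proton pump (V-ATPase), also needed for fusion. Tetraspanins are small proteins that cross the membrane repeatedly and gather integrins, immunoglobulin-like proteins and proteases into clusters. CD9 and CD81 are close relatives at the cell surface known from gamete and macrophage fusion, CD63 sits mainly in late endosomes and lysosomes, and CD82 is a surface tetraspanin first known as a suppressor of metastasis.

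The 4 tetraspanins share consecutive cysteine, cysteine and glycine codons in their large extracellular loop, a mark of the family. The coding bases around it are shown from the GENCODE release vM21 transcripts, 5′ to 3′, with the 3 codons in capitals.
Cd9: atggcgttggacTGCTGTGGCatagctggt
Cd81: gagacgctcaacTGTTGTGGCtccaacgca
Cd63: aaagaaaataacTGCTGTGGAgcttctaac
Cd82: gcgcaggtcaagTGCTGTGGCtgggtcagc
The first of these codons is codon 150 of 226 in Cd9, codon 156 of 236 in Cd81, codon 145 of 238 in Cd63 and codon 149 of 266 in Cd82, counted from the start codon. It lies in exon 6 of 8 in Cd9, Cd81 and Cd63, and in exon 8 of 10 in Cd82. Codons for the same 3 amino acids occur once more in Cd9 (from codon 76), Cd63 (from codon 72) and Cd81 (from codon 227), outside the stretch shown.

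Before the results, 3 features of the libraries need stating. Kdm1a, the targeted gene, was at 61.2 to 71.3 CPM (counts scaled to library size) in the 6 LSD1WT libraries and 15.6 to 24.3 CPM in the 6 LSD1cKO libraries, without overlap, and fell over the 3 cultures (log2 fold change -1.82, SE 0.11, adjusted p = 3.56e-05). Replicate 2 of LSD1WT femur nearly lacked osteoclast transcripts in both the ligated and the unligated culture. The labels give RANKL for all 12 cultures, and whether these 2 received it as the others did was not tested, so that results over LSD1WT femur are given with and without them. The summed level of 6 osteoclast markers (Acp5, Ctsk, Calcr, Mmp9, Oscar and Car2) was 35.6 and 120.1 CPM in those libraries against 10133 to 36809 CPM in the other 10, and that of 6 macrophage markers was 9073 and 7539 CPM against 1564 to 4098 CPM. In the same 2 libraries the megakaryocyte list summed to 905 and 439 CPM against 10.9 to 61.8 CPM, the neutrophil list to 274 and 88.3 CPM against 114 to 301 CPM, the dendritic cell list to 75.2 and 31.8 CPM against 65.0 to 259 CPM, the stromal list to 26.5 and 0.456 CPM against 1.16 to 41.9 CPM, and the lists of B, T and NK, erythroid and mast cells stayed at or under 9.60 CPM in all 12 libraries. Finally, the pair of mandible LSD1WT libraries differed far less than any other pair, with 3.1 times the variation of counting noise against 15.1 to 708 times in the other 5 pairs, and the label of its replicate 3 names the mandible in the title and the femur in the library name. That library was taken as mandible. Nothing in the labels says that libraries of a condition share a litter or a culture day, and p-values measure the spread between these libraries. In bulk RNA, fewer osteoclasts and less of a transcript per osteoclast cannot be told apart.

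Compared per base of exon, Atp6v0d2 had the highest median of the 7 transcripts and Cd81 the lowest. The order did not hold in the 2 osteoclast-poor libraries, where Cd81 was at 104 and 105 RPKM and Atp6v0d2 at 6.27 and 4.30 RPKM. The median RPKM (CPM per kilobase of exon) over the 12 libraries were 447 for Atp6v0d2, 188 for Cd9, 124 for Dcstamp, 119 for Cd63, 66.8 for Ocstamp, 37.6 for Cd82 and 15.3 for Cd81. Cd9, Dcstamp and Cd63 overlap in their ranges, which were 60.6 to 255 RPKM for Cd9, 0.212 to 241 RPKM for Dcstamp and 51.4 to 156 RPKM for Cd63, and the order of these neighbours is not separated by their spread. Over all libraries the range was 1601-fold for Ocstamp, 1137-fold for Dcstamp, 187-fold for Atp6v0d2 and 28.4-fold for Cd81, but 4.2-fold for Cd9, 3.62-fold for Cd82 and 3.04-fold for Cd63.

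**Figure D1:**
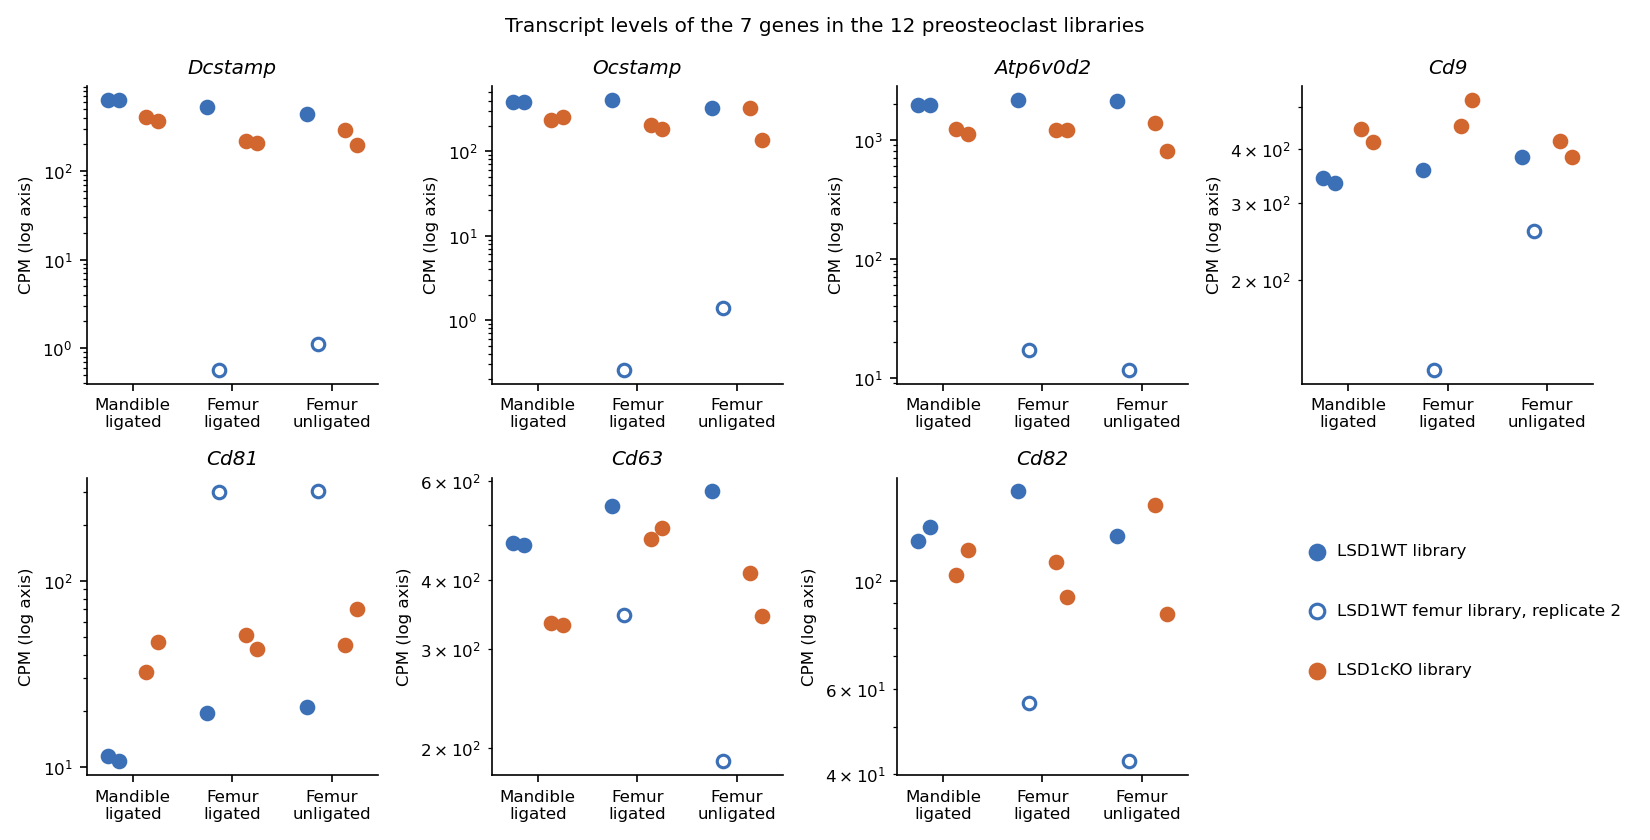
Level of each of the 7 genes in each library, in CPM on a log axis that differs between panels, by culture and genotype, with 1 circle per library. The open circles, replicate 2 of LSD1WT femur, are the lowest LSD1WT values of Dcstamp, Ocstamp, Atp6v0d2, Cd9, Cd63 and Cd82 and the highest of Cd81.

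The first comparison asks whether loss of LSD1 changed the fusion genes. Dcstamp was at 642 and 632 CPM in LSD1WT mandible libraries and at 403 and 372 CPM in LSD1cKO. The ligated femur libraries held 525 and 0.564 CPM with the LSD1WT genotype, and 216.2 and 206 CPM with LSD1cKO. The unligated femur libraries held 436 and 1.12 CPM with the LSD1WT genotype, and 288 and 198 CPM with LSD1cKO. Every LSD1cKO library therefore lay below every LSD1WT library except the 2 femur replicates 2, in which Dcstamp rested on 11 and 27 counts. Among the 10 libraries without those 2, the 6 LSD1cKO and 4 LSD1WT values of Dcstamp did not overlap. In that split 7.24% of all genes were lower without overlap.

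Ocstamp followed the same course with 1 exception. It was at 389 and 383 CPM in LSD1WT mandible and at 232 and 257 CPM in LSD1cKO mandible. In ligated femur the values were 411 and 0.257 CPM in LSD1WT and 207 and 182 CPM in LSD1cKO. In unligated femur LSD1WT was at 326 and 1.41 CPM, and the LSD1cKO libraries differed between themselves, at 328 and 138 CPM. The higher of these lies just above replicate 1 of LSD1WT, so that in unligated femur the genotypes overlap for Ocstamp with or without replicate 2.

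Atp6v0d2 was at 1974 and 1955 CPM in LSD1WT mandible and at 1226 and 1119 CPM in LSD1cKO mandible. The ligated femur libraries held 2185 and 17.0 CPM with the LSD1WT genotype, and 1201 and 1203 CPM with LSD1cKO. The unligated femur libraries held 2104 and 11.7 CPM with the LSD1WT genotype, and 1378 and 808 CPM with LSD1cKO. As for Dcstamp, all 6 LSD1cKO libraries lay below the 4 LSD1WT libraries that held osteoclast transcripts and far above the 2 that did not.

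The tetraspanins did not share 1 pattern. Cd9 was higher in all 6 LSD1cKO libraries than in any LSD1WT library, a split in which 2.78% of all genes had no overlap in either direction. Its values were 343 and 335 CPM in LSD1WT mandible and 445 and 414 CPM in LSD1cKO mandible. In ligated femur they were 357 and 124 CPM in LSD1WT and 453 and 520 CPM in LSD1cKO, and in unligated femur 383 and 258 CPM in LSD1WT and 417 and 384 CPM in LSD1cKO. The gap in unligated femur is narrow, since the lower LSD1cKO value of 384 CPM lies just above the higher LSD1WT value of 383 CPM.

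Cd81 had the opposite order to the fusion genes. It was at 11.5 and 10.7 CPM in LSD1WT mandible and at 32.3 and 46.8 CPM in LSD1cKO mandible. The ligated femur libraries held 19.4 and 298 CPM with the LSD1WT genotype, and 51.2 and 43.0 CPM with LSD1cKO, and in unligated femur at 20.9 and 303 CPM in LSD1WT and 45.0 and 70.3 CPM in LSD1cKO. The 2 libraries with the fewest osteoclast transcripts held the most Cd81, the 4 other LSD1WT libraries held the least, and the 6 LSD1cKO libraries lay between them without overlap.

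Cd63 and Cd82 varied less. Cd63 was at 465 and 462 CPM in LSD1WT mandible against 334 and 332 CPM in LSD1cKO mandible. The ligated femur libraries held 540 and 346 CPM with the LSD1WT genotype, and 472 and 494 CPM with LSD1cKO, and in unligated femur at 576 and 189 CPM in LSD1WT and 411 and 344 CPM in LSD1cKO. Its level is uncertain to the extent that reads of the near-identical pseudogene Cd63-ps are exchanged with it, whose counts ran from 12.8% to 14.5% of those of Cd63 in every library. Cd82 ranged from 103 to 129 CPM over the 4 mandible libraries, was at 154 and 56.1 CPM in LSD1WT and 110 and 93.0 CPM in LSD1cKO ligated femur, and at 124 and 42.4 CPM in LSD1WT and 144 and 85.5 CPM in LSD1cKO unligated femur. The genotypes overlapped for Cd82 in both femur cultures.

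With all 12 libraries in the fit, 0 of the 7 members passed an adjusted p of 0.05 in any of 10 comparisons (edgeR quasi-likelihood test, adjusted over all genes tested). For the genotype effect over the 3 cultures, in which 3.53% of all genes tested were called, 1 of 7 members had an unadjusted p under 0.05, as did 16.1% of all genes. It was Cd9, with a log2 fold change of 0.56 (SE 0.24, adjusted p = 0.291). The other 6 had log2 fold changes from -0.59 (SE 0.92) for Cd81 to 0.07 (SE 0.30) for Cd82, and for Dcstamp, Ocstamp and Atp6v0d2 the SE was 1.15, 1.15 and 1.01. Taken 1 culture at a time, the share of all genes called was 0% in ligated mandible and 0% in unligated femur, where 744 and 763 genes had an unadjusted p under 0.05, and 0.00648% in ligated femur, which is Kdm1a alone.

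An exact permutation test of the genotype labels within cultures, two-sided, was run on each member as a single value. For Cd9 the mean difference within cultures was 0.63 on the log2 CPM scale, and the exact permutation p over libraries was 0.00926, the smallest that relabelling libraries can give. The 12 libraries come from 9 mice, however, and with whole mice relabelled the exact permutation p for Cd9 was 0.0667 over 60 arrangements. Among mice with the same bones cultured it was 0.0556 over 18 arrangements, the smallest p these allow, so that the difference in Cd9 did not pass at the level of the mouse. The fits across cultures likewise treat the 12 libraries as independent. For the other members the exact permutation p over libraries was 0.491 to 0.880. Their mean log2 differences were 2.07 for Dcstamp, 2.22 for Ocstamp, 1.55 for Atp6v0d2 and 0.20 for Cd81, opposite in sign to the fitted changes of these genes, and -0.04 for Cd63 and 0.18 for Cd82. The p-values are not adjusted over the 7 members, which were chosen with results known. Groups without overlap over all 6 against 6 libraries were seen for 2.78% of all genes, and Cd9 was the only 1 of the 7 members among them.

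Leaving out both femur LSD1WT replicates 2 changed these calls. These libraries were set aside for their osteoclast transcripts, with which the fusion genes go, so the values without them describe the other 10 libraries and are not independent evidence. In that fit 6 of the 7 members passed, beside 24.2% of all genes tested. The log2 fold changes over the 3 cultures were then -0.89 for Dcstamp (SE 0.13, adjusted p = 0.000876), -0.69 for Ocstamp (SE 0.20, adjusted p = 0.0321) and -0.79 for Atp6v0d2 (SE 0.14, adjusted p = 0.003). Cd63 was lower by a log2 fold change of -0.39 (SE 0.11, adjusted p = 0.0261), Cd9 higher by 0.33 (SE 0.10, adjusted p = 0.0425) and Cd81 higher by 1.61 (SE 0.17, adjusted p = 0.000114), while Cd82 was at -0.25 (SE 0.15, adjusted p = 0.251). Cd81 and Cd82 thus changed sign between the fits.

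**Figure D2:**
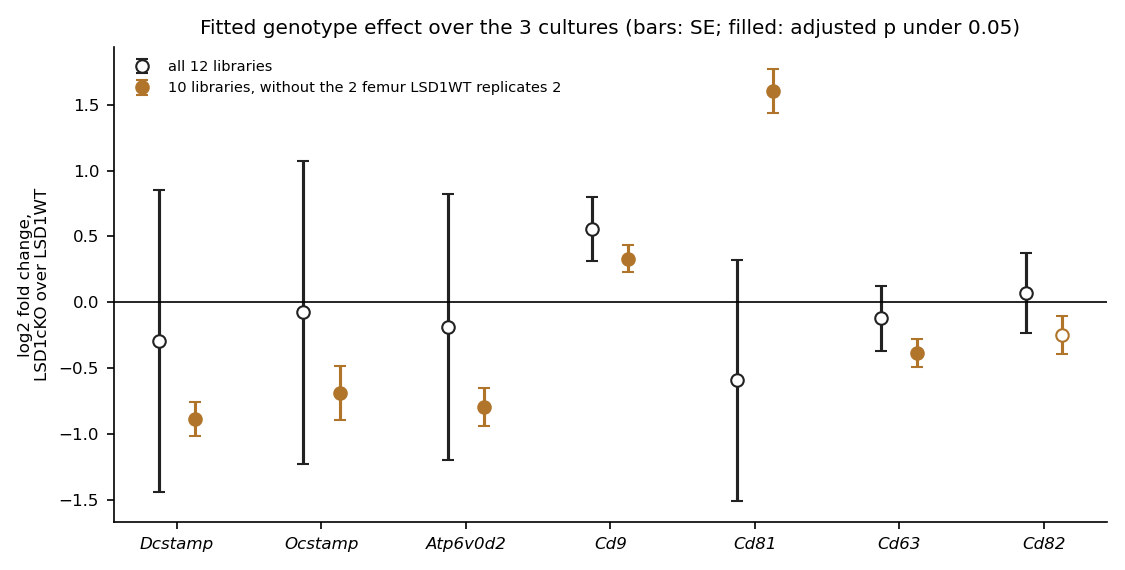
Fitted log2 fold change of each gene for LSD1cKO over LSD1WT across the 3 cultures, with bars of 1 SE, from all 12 libraries and from the 10 without replicate 2 of LSD1WT femur. No gene passes in the first fit, and in the second 6 of 7 do (filled circles), with Cd81 at 1.61 and Dcstamp at -0.89.

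In the ligated mandible, where neither of those libraries belongs, the members were separated by genotype in the same directions. Fitted log2 fold changes were -0.72 for Dcstamp, -0.66 for Ocstamp, -0.74 for Atp6v0d2, 0.34 for Cd9, 1.84 for Cd81, -0.48 for Cd63 and -0.19 for Cd82. All 7 members had groups that did not overlap, 5 lower and 2 higher in LSD1cKO, beside 68.9% of all genes (34.8% lower and 34.1% higher), a share at which non-overlap says little. Because the fit shares 1 estimate of the spread over the 6 conditions, the SE in the mandible was 2.19 for Dcstamp and 0.43 for Cd9, and no member passed. Fitted on the 4 mandible libraries alone, 6 members passed beside 37.7% of all genes, with SEs of 0.06 for Dcstamp and 0.16 for Cd81 and adjusted p from 0.000109 for Atp6v0d2 to 0.00288 for Cd9. Cd82 had an adjusted p of 0.0603. That fit rests on the mandible LSD1WT pair with its unusually small difference and its conflicting label. Without the 2 femur libraries, 1 member passed in the mandible, Cd81 (log2 fold change 1.87, SE 0.26, adjusted p = 0.00695), beside 5.85% of all genes.

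In the femur cultures the LSD1WT replicates differed more than the genotypes did. Genotypes did not overlap for 1 member, Cd9, in ligated femur (34.2% of all genes) and for 1 member, Cd9, in unligated femur (18.4% of all genes). The fitted log2 fold change of Cd9 was 1.02 in ligated femur (SE 0.44, adjusted p = 0.717) and 0.32 in unligated femur (SE 0.43, adjusted p = 1). With both replicates 2 left out, so that a lone LSD1WT library stood for each femur culture and was assumed to vary like the other conditions, 2 members passed in ligated femur beside 9.35% of all genes. They were Dcstamp (log2 fold change -1.23, SE 0.23, adjusted p = 0.0173) and Cd81 (1.36, SE 0.32, adjusted p = 0.0408).

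Against the LSD1WT libraries with osteoclast transcripts, the mean LSD1cKO level of the 3 fusion genes was lower in each culture. Dcstamp in LSD1cKO was at 60.8% of LSD1WT in mandible, 40.2% in ligated femur and 55.7% in unligated femur. Atp6v0d2 was at 59.7%, 55.0% and 51.9% in the same order, and Ocstamp at 63.3%, 47.3% and 71.5%. The last value averages an LSD1cKO replicate 1 at 101% and a replicate 2 at 42.3%. The summed osteoclast markers were at 55.8%, 46.3% and 54.0%, and the macrophage markers at 85.2%, 92.3% and 104%. The macrophage sum was carried by Csf1r and Cd68, with medians of 1339 and 965 CPM over the 12 libraries. Adgre1, Mrc1, Mertk and Fcgr1 had medians of 300, 90.7, 24.7 and 22.7 CPM and entered it with less weight. In unligated femur the osteoclast sum was at 78.1% in LSD1cKO replicate 1 and at 29.9% in replicate 2. Other lists also differed between the genotypes. In ligated femur the neutrophil list summed to 301 and 275 CPM in LSD1cKO against 114 CPM in LSD1WT replicate 1, and the dendritic cell list to 258 and 259 CPM against 123 CPM. The dendritic cell sum was carried by H2-Aa, at 26.3 to 243 CPM over the 12 libraries. Its other genes, Flt3, Zbtb46, Xcr1, Siglech and Cd209a, each stayed at or under 6.60 CPM. In mandible the stromal list summed to 10.2 and 4.42 CPM in LSD1cKO against 41.7 and 41.9 CPM in LSD1WT. The osteoclast sum was carried by Mmp9, Acp5 and Ctsk, with medians of 8241, 4645 and 3887 CPM over the 12 libraries. Car2, Oscar and Calcr had medians of 235, 77.7 and 37.7 CPM and entered it with less weight. Single markers differed. In mandible Car2 averaged 288 CPM in LSD1WT and 235 CPM in LSD1cKO, and Calcr 43.1 and 19.3 CPM. The percentages of the 3 fusion genes, 40.2% to 71.5%, reached below and above those of the osteoclast sum. The part of any of these lists in the result was not tested. Cd9 was at 127%, 136% and 105%, Cd81 at 357%, 242% and 276%, Cd63 at 71.9%, 89.4% and 65.6%, and Cd82 at 87.5%, 66.0% and 92.4%.

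Within each of the 3 cultures, and again without the 2 femur libraries, LSD1cKO lay below LSD1WT without overlap for Dcstamp, Atp6v0d2 and Cd63 (16.8% of all genes) and above it for Cd9 and Cd81 (15.2% of all genes). With the 6 LSD1cKO set against the 4 LSD1WT libraries as a whole, Dcstamp and Atp6v0d2 were lower (7.24% of all genes) and Cd9 and Cd81 higher (7.13% of all genes). Ocstamp and Cd82 overlapped in both counts.

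**Figure D3:**
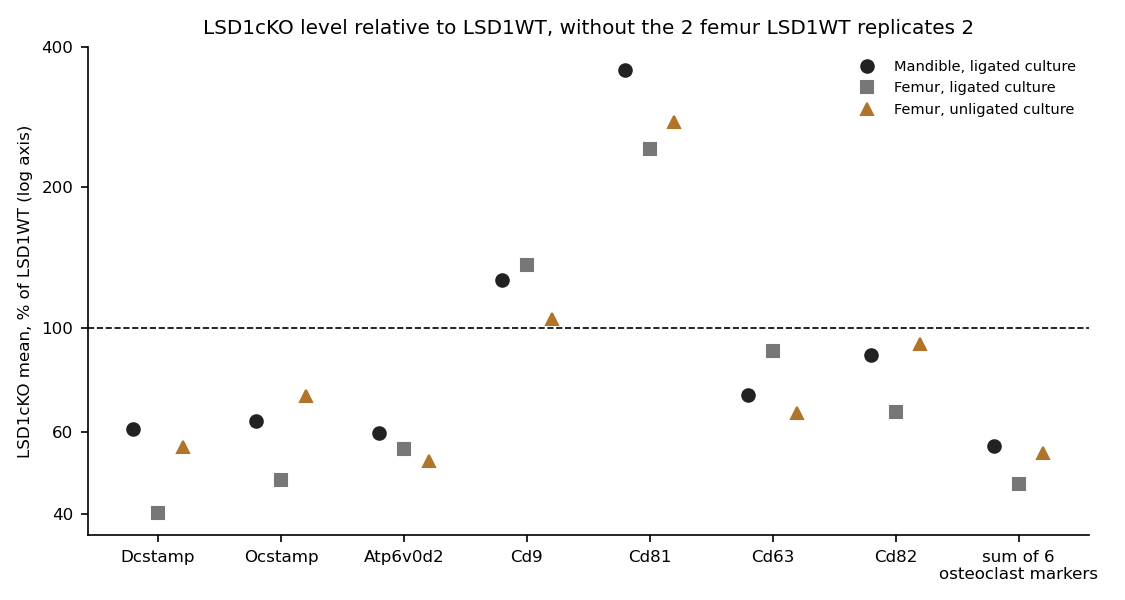
Mean LSD1cKO level as a percentage of the LSD1WT level on a log axis, for each gene and for the sum of 6 osteoclast markers, in each culture, with the 2 osteoclast-poor femur LSD1WT libraries left out. The 3 fusion genes lie at 40.2% to 71.5%, beside the marker sum at 46.3% to 55.8%, while Cd9 and Cd81 lie above 100% in each culture.

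The 2 osteoclast-poor libraries show how each gene varied between cultures of the same genotype with and without osteoclast transcripts. Replicate 1 exceeded replicate 2 in ligated and unligated LSD1WT femur by 931-fold and 390-fold for Dcstamp, by 1601-fold and 231-fold for Ocstamp, whose level in replicate 2 rested on 5 and 34 counts, and by 128-fold and 180-fold for Atp6v0d2. The tetraspanins retained more of their level. Cd9 was 2.88-fold and 1.48-fold higher in replicate 1, Cd82 2.74-fold and 2.92-fold, and Cd63 1.56-fold and 3.04-fold. A level at least 2-fold lower in replicate 2 in both cultures, seen for 13% of all genes, held for Dcstamp, Ocstamp, Atp6v0d2 and Cd82. Cd81 was the only 1 of the 7 with a level at least 2-fold higher in both, seen for 10.6% of all genes. These are ratios of single libraries and have no test. Both replicates 2 were set aside for their osteoclast transcripts, with which the 3 fusion genes go. The low place of Dcstamp, Ocstamp and Atp6v0d2 there was therefore fixed in advance and is no separate result.

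The d subunit of the V0 sector is encoded by Atp6v0d1 in most cells and by Atp6v0d2 in osteoclasts and few others, and the pair was compared within each library. Atp6v0d1 stayed at 114 to 146 RPKM in all 12 libraries, and its log2 fold change over the 3 cultures was -0.06 (SE 0.09, adjusted p = 0.814). The ratio of Atp6v0d2 to Atp6v0d1 per length was 5.38 to 5.67 in the 4 LSD1WT libraries with osteoclast transcripts, 2.26 to 3.96 in the 6 LSD1cKO libraries, and 0.0480 and 0.0345 in the 2 femur LSD1WT replicates 2. The 3 sets of libraries did not overlap in this ratio. The 2 femur LSD1WT replicates 2 were set aside for their osteoclast transcripts, with which Atp6v0d2 goes, so their place was fixed in advance. Of the levels of all genes, 7.24% were lower without overlap in the 6 LSD1cKO than in the 4 LSD1WT libraries.

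**Figure D4:**
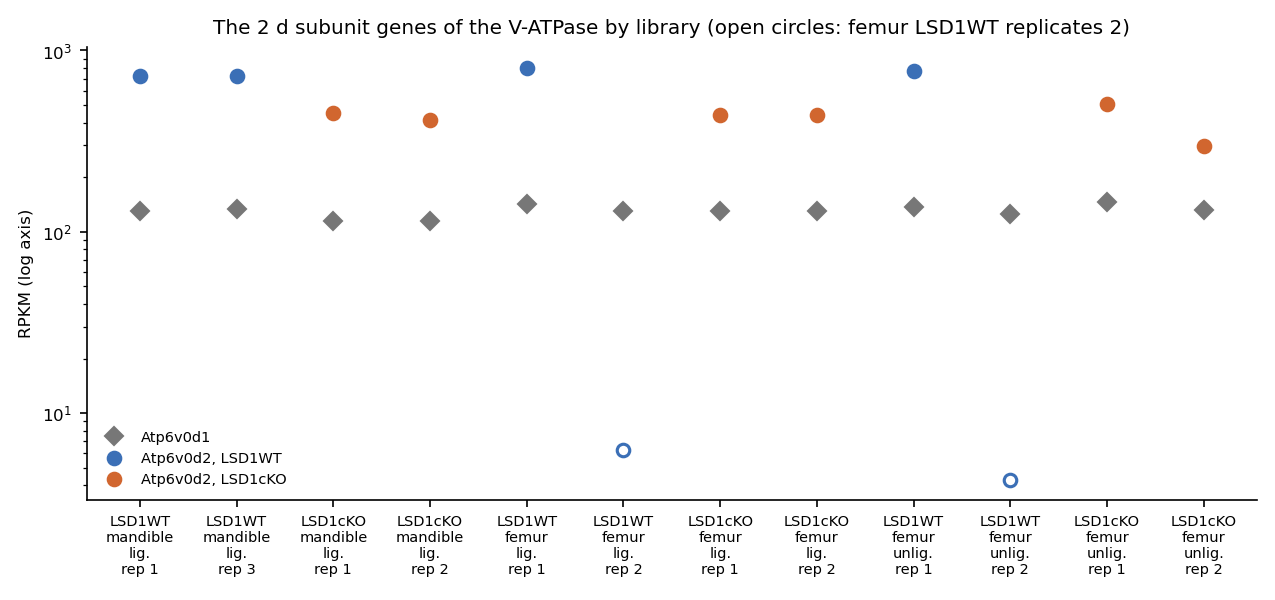
Level of Atp6v0d1 (diamonds) and Atp6v0d2 (circles) in each of the 12 libraries, in RPKM on a log axis. Atp6v0d1 stays between 114 and 146 RPKM while Atp6v0d2 lies at 720 to 804 RPKM in 4 LSD1WT libraries, at 298 to 507 RPKM in LSD1cKO and at 6.27 and 4.30 RPKM in replicate 2 of LSD1WT femur.

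The second comparison is between skeletal sites. In LSD1cKO preosteoclasts of ligated mice, Dcstamp was higher in the mandible (403 and 372 CPM) than in the femur (216.2 and 206 CPM) of the same 2 mice, a log2 fold change of 0.88 (SE 2.20, adjusted p = 0.917). Cd63 was lower in the mandible (334 and 332 CPM) than in the femur (472 and 494 CPM), a log2 fold change of -0.54 (SE 0.45, adjusted p = 0.660). Ocstamp was also higher and Cd9 lower without overlap, beside 70.3% of all genes, and 0% of all genes were called. Since the labels tie these 4 libraries to 2 mice, a paired fit with the mouse as a replicate block was run on them. There 2 of the 7 members passed beside 38.2% of all genes, Dcstamp (0.87, SE 0.17, adjusted p = 0.000533) and Cd63 (-0.54, SE 0.17, adjusted p = 0.0202). Both also passed on the 4 libraries with no block (42.1% of all genes called) and in the fit without the 2 femur LSD1WT libraries (21.7% of all genes called). The log2 fold changes of the remaining 5 members lay between -0.27 and 0.33 in the paired fit, with Atp6v0d2 at -0.04 (SE 0.19). The fits on these 4 libraries rest on 2 mice. Their SEs lean on the spread pooled over genes more than on that between mice.

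In LSD1WT the site comparison contains the ligated femur replicate 2. It also contains mandible replicate 3, the library whose labels conflict between mandible and femur. By the labels a ligated mouse gave a library to each side, and the fit did not use that pairing. Cd81 was at 11.5 and 10.7 CPM in mandible and at 19.4 and 298 CPM in femur, a log2 fold change of -3.84 (SE 1.37, adjusted p = 0.203). It was the only member with an unadjusted p under 0.05 here, beside 0% of genes called and 3051 with an unadjusted p under 0.05. Without the 2 femur libraries its log2 fold change was -0.78 (SE 0.30, adjusted p = 0.293). Dcstamp and Cd81 were separated without overlap, beside 60.7% of all genes.

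Ligature was compared in femur, far from the tooth. For no member did it pass in LSD1WT (0% of all genes called, 118 with an unadjusted p under 0.05) or in LSD1cKO (0% called, 148 unadjusted), and the smallest unadjusted p of a member was 0.363 and 0.455. In LSD1cKO, Atp6v0d2 was at 1201 and 1203 CPM in ligated and 1378 and 808 CPM in unligated cultures, and Cd9 at 453 and 520 CPM against 417 and 384 CPM. The genotype effect did not pass a test of difference between sites or between ligated and unligated femur for any member (0% of all genes called in either, 149 and 53 unadjusted). The smallest unadjusted p among the members was 0.0760, for Cd81 between sites.

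The promoters of Cd9 and Cd81 are shown because these 2 genes were higher in LSD1cKO than in the LSD1WT libraries with osteoclast transcripts, while in the osteoclast-poor libraries Cd9 was lower and Cd81 higher than in any LSD1cKO library. Sequences are from RefSeq, build GRCm38.p6, from 250 bases before to 50 after the start of the gene, 5′ to 3′ on the strand of the gene, and capitals mark matches to the motifs given after them. Cd9 lies at chr6:125494711-125495010 on the minus strand and Cd81 at chr7:143052500-143052799 on the plus strand.
Cd9: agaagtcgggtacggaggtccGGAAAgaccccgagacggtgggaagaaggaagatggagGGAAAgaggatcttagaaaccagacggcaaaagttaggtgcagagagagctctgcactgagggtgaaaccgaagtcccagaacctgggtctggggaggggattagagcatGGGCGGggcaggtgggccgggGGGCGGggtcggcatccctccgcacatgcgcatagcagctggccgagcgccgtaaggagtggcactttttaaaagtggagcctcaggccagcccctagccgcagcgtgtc
Cd81: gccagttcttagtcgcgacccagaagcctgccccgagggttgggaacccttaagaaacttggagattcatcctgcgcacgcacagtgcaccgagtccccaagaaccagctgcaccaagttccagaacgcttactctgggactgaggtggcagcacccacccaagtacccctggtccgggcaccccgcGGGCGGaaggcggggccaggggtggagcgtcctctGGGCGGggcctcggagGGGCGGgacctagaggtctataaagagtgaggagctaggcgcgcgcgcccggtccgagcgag
The motifs searched on both strands were GGAAA (the NFAT core), TGANTCA (AP-1), CACGTG (an E-box of the MITF type) and GGGCGG (the GC box). No match in Cd9 or Cd81 overlapped another. Cd9 held 2 matches to GGAAA and 2 to GGGCGG, and Cd81 held 3 to GGGCGG and none to GGAAA. Neither held TGANTCA or CACGTG. Over 32851 promoters of this length, 61.3% held GGAAA, 35.7% GGGCGG, 7.81% TGANTCA and 7.15% CACGTG. The G and C content was 61.3% for Cd9 and 65.7% for Cd81 against a median of 52.7%, and CG dinucleotides numbered 18 and 23 against a median of 7. Matches describe letters in this window only. For Cd63, with 2 matches to GGAAA, and Cd82, with 4 start sites, the table has entries too, and Dcstamp, Ocstamp and Atp6v0d2 are named only.

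Members were also compared with each other over the libraries, as a description. The points share library, depth and, for 3 mice, the animal. Pearson's r of log2 CPM over 12 libraries was 0.99 between Dcstamp and Ocstamp, 0.99 between Dcstamp and Atp6v0d2 and -0.91 between Dcstamp and Cd81. Over the 10 libraries without the osteoclast-poor pair these were 0.87, 0.82 and -0.92. The sign of r for Cd9 depended on those 2 libraries, since it was 0.81 with Dcstamp over 12 libraries and -0.76 over 10, and -0.58 with Cd81 over 12 and 0.70 over 10. Cd9 thus stood with the fusion genes in the contrast between osteoclast-rich and osteoclast-poor cultures and with Cd81 among the rest.

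The genes whose pattern over the 12 libraries was most like each member were taken as the 3 with the highest r. For Dcstamp they were Cd200, Zfp462 and Rai14 (r of 0.998, 0.997 and 0.996), and for Ocstamp Akap6, Zfp827 and Cyp2s1 (0.999, 0.998 and 0.997). For Atp6v0d2 they were Spns2, Adgrf3 and Krt7 (0.999, 0.997 and 0.997). These values follow the 2 osteoclast-poor libraries, and over the other 10 they were 0.983, 0.912 and 0.978 for the genes most like Dcstamp, 0.980, 0.956 and 0.821 for those most like Ocstamp and 0.966, 0.919 and 0.915 for those most like Atp6v0d2. For Cd81 the 3 were Fads1, Top3a and Arrb2 (0.996, 0.993 and 0.993, with 0.987, 0.978 and 0.987 over 10 libraries). For Cd9 they were Tmem158, Sap30 and Slamf9 (0.957, 0.953 and 0.951), with lower values of 0.573, 0.731 and 0.899 over 10 libraries. For Cd82 they were Plxnd1, Xpr1 and Ndst1 (0.986, 0.984 and 0.982), and for Cd63 they were Cd63-ps, Ngly1 and Bfar (0.995, 0.976 and 0.966), of which the first can share its reads.

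Among the tetraspanin family as a whole, the transcript pool differed in makeup between libraries. Of the summed RPKM of all tetraspanin genes tested, Cd9 took a median of 27.1% (6.87% to 33.04%), Cd53, a tetraspanin of leukocytes, 15.7% (9.65% to 39.0%), Cd63 15.6% (6.50% to 22.6%) and Cd81 1.96% (0.601% to 13.3%). In the 2 femur LSD1WT replicates 2, Cd53 made up 39.0% and 33.5% and Cd81 11.7% and 13.3%, while Cd9 was at 6.87% and 16.0%. In LSD1cKO libraries Cd53 was at 15.0% to 21.9%, against 9.65% to 12.3% in the 4 other LSD1WT libraries.

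**Figure D5:**
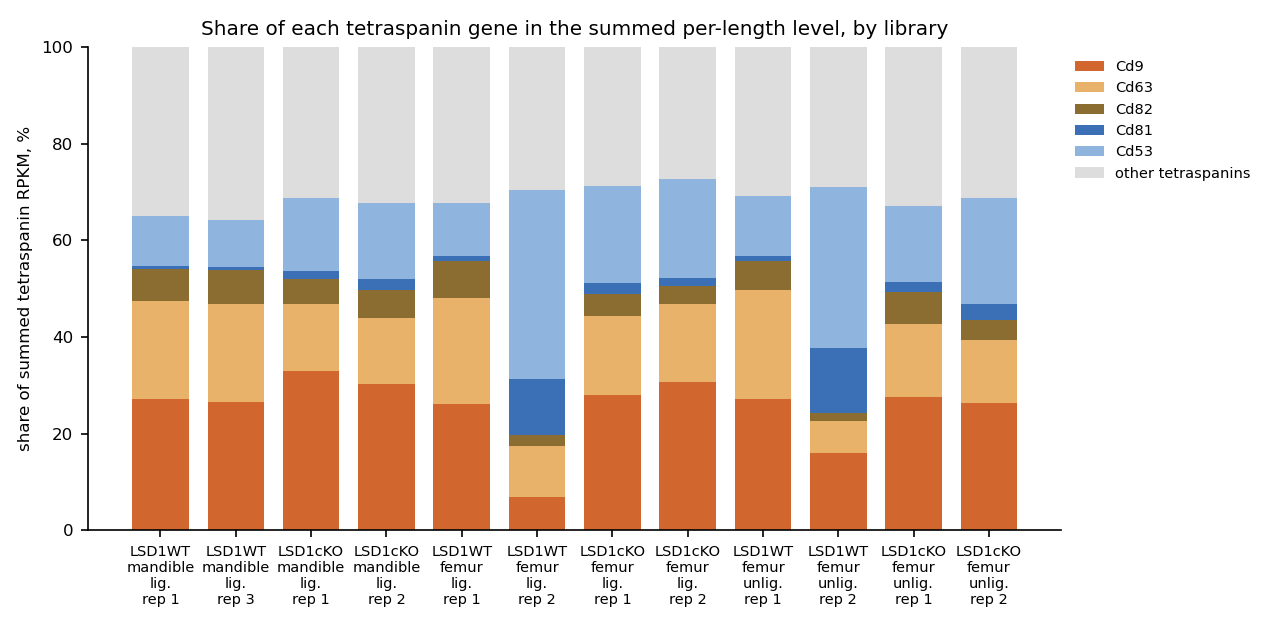
Share of Cd9, Cd63, Cd82, Cd81, Cd53 and all other tetraspanin genes tested in their summed RPKM, in percent, 1 bar per library. Cd53 and Cd81 together exceed Cd9 in the 2 femur LSD1WT replicates 2, where Cd53 reaches 39.0% and 33.5%.

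Of 21 other tetraspanins tested from a list of 27, 2 rose over the 3 cultures and none fell. Of all genes 3.53% were called, 544 genes, of which 462 were higher in LSD1cKO. Tspan32, a tetraspanin of blood cells, was at 3.12 to 29.2 CPM in LSD1WT and 28.2 to 52.8 CPM in LSD1cKO, with 1 LSD1WT library inside the LSD1cKO range (log2 fold change 2.14, SE 0.44, adjusted p = 0.0252). Tspan2 was at 0.802 to 1.20 CPM in LSD1WT and 1.69 to 2.74 CPM in LSD1cKO, without overlap (1.19, SE 0.20, adjusted p = 0.0110). The median log2 fold change of the 21 was 0.02 beside -0.06 for all genes. Cd37, a tetraspanin of lymphoid and myeloid cells, was at 82.0 to 102 CPM in LSD1WT and 109 to 149 CPM in LSD1cKO (0.37, SE 0.11, adjusted p = 0.0990), and Cd53 at 104 to 600 CPM and 172 to 295 CPM (adjusted p = 1.00). The call of Tspan32 was lost when either mandible LSD1WT library was left out (adjusted p = 0.0645 and 0.0632) and, among the LSD1cKO libraries, without ligated femur replicate 2 (0.0506) or unligated femur replicate 2 (0.0598). It was also lost with the mandible LSD1WT libraries summed into 1 (0.0630) and with the library of conflicting labels taken as femur (0.0643).

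Other genes of fusion, from a list of 22 of which 19 were tested, gave 0 calls over the 3 cultures, beside 3.53% of all genes. At an unadjusted p under 0.05, 2 were higher and 1 lower, beside 16.1% of all genes, and the median log2 fold change was -0.20. Sirpa, a receptor on myeloid cells that binds CD47, was at 760 to 992 CPM in the 4 mandible libraries and at 1589 to 2830 CPM in the 8 femur libraries, and Itgav, the alpha subunit of the vitronectin receptor, was at 114 and 353 CPM in the femur LSD1WT replicates 2 and at 428 to 1623 CPM elsewhere. Of 9 tetraspanin partners, 0 were called and the median was 0.07. The integrin subunit Itgb1 stayed within 435 to 911 CPM, whereas the membrane protease Mmp14 was at 2.72 and 3.02 CPM in the femur LSD1WT replicates 2 and at 151 to 760 CPM elsewhere. Of 9 other V0 and accessory V-ATPase subunits tested from 11, 0 were called, with a median of -0.06. Tcirg1, the a3 subunit of osteoclasts, was at 489 and 380 CPM in those 2 libraries and at 871 to 1499 CPM elsewhere, and the proteolipid subunit Atp6v0c at 413 and 357 CPM and at 681 to 1234 CPM, a smaller gap than for Atp6v0d2.

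Of 14 further osteoclast genes, which include the 6 markers above, 0 were called over the 3 cultures, and their median was -0.34. In the mandible all 14 were lower in LSD1cKO without overlap, with a median of -0.74 beside -0.72 for Dcstamp and -0.74 for Atp6v0d2, where 34.8% of all genes were lower without overlap. With all libraries 8 of the 14 had a fitted change below 0 in ligated femur and 6 in unligated femur, and none was separated in either. Without the 2 femur libraries, which were set aside for 6 of these 14 genes, the list is not counted. Within each culture and without those libraries, 5 of the 19 other fusion genes were lower and 4 higher, and 5 of the 21 other tetraspanins were lower and 8 higher, beside 16.8% of all genes lower and 15.2% higher. Ctsk, the collagen-degrading protease of osteoclasts, was at 7133 to 7875 CPM in the 4 LSD1WT libraries with osteoclast transcripts, at 2197 to 4326 CPM in the 6 LSD1cKO libraries and at 5.90 and 17.1 CPM in the other two. Mmp9, a matrix metalloproteinase, ran from 9570 to 21240 CPM, from 4574 to 16257 CPM and at 20.4 and 74.4 CPM in the same sets. Both are among the 6 markers by which those 2 femur libraries were set aside, so their low values there are no separate result.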

How the data were processed

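The 12 libraries were polyA RNA of preosteoclasts. The submitters' processing notes name HISAT2 2.1.0, FastQC, featureCounts, edgeR and build GRCm39. The authors deposited raw counts per Ensembl gene, whole numbers with no normalization, and their strand setting is not given in the sources used here. Library totals ran from 21375805 to 32526751 counts (median 26364586), and these limit precision for counting error only.

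In R 4.3.3, edgeR 4.0.16 kept 15425 genes (filterByExpr), scaled libraries by TMM and fitted the quasi-likelihood test with 1 coefficient for each of 6 conditions, or culture plus genotype for the overall effect. P values were adjusted by Benjamini-Hochberg over all genes tested and held to 0.05. Log2 CPM used a prior count of 2. RPKM used exon union lengths of GENCODE vM21 joined by Ensembl identifier. Groups came from sample titles. The fit with 6 conditions was tested on simulated counts for the genotype effect in ligated mandible only. Alternatives were DESeq2 1.42.0, other scalings and filters, subsets of libraries, blocks and libraries left out.

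The members and lists were chosen with earlier results of these data known. Named genes are the 7 members, Kdm1a, Atp6v0d1, the 3 genes most like each member, and from each list the genes past the threshold (at most 4) and the 2 with the highest mean CPM. In LSD1cKO, mandible and femur libraries of ligated mice are paired by mouse in the labels, and the 2 mice's differences correlated at 0.026 between sites. The replicate numbers of the other conditions do not mark a shared animal throughout.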

Additional observations from a re-analysis of the deposited data

How the results depend on the processing

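The count of members called was 0 in each of the 10 comparisons and stayed at 0 in all but the following settings. With both femur LSD1WT replicate 2 libraries left out it was 6 for the genotype effect over the 3 cultures, 1 in ligated mandible, 2 in ligated femur and 2 for the site effect in LSD1cKO. With the libraries of the compared conditions alone it was 6 in ligated mandible and 2 for the site effect in LSD1cKO, and it was 2 for the latter with the mouse as replicate block. For the site effect in LSD1WT it was 1, Cd81, with DESeq2 and with no filter beyond 1 count in any library, and 0 to 2 with 1 library left out (2 without ligated femur LSD1WT replicate 1, Cd81 and Cd9).

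The fitted genotype effect over the 3 cultures turned direction, always without passing the threshold except where stated. With the replicate block over all libraries, a paired fit in which the number marks a shared mouse for the 2 bones of 3 ligated mice but none across genotypes, it was 0.22 for Dcstamp, 0.46 for Ocstamp and 0.29 for Atp6v0d2. With the mandible LSD1WT libraries summed into 1, Ocstamp was at 0.025. Without both femur replicates 2, Cd81 was at 1.61, which passed, and Cd82 at -0.25. With 1 library left out the range was -0.56 to 0.48 for Dcstamp, -0.35 to 0.71 for Ocstamp, -0.48 to 0.49 for Atp6v0d2, -0.24 to 0.16 for Cd63, -0.96 to 0.49 for Cd81 and -0.073 to 0.35 for Cd82, and for the site effect in LSD1cKO -0.13 to 0.0066 for Atp6v0d2 and -0.010 to 0.21 for Cd82. Dcstamp, Ocstamp and Atp6v0d2 turned without replicate 1 of LSD1WT femur, whether ligated or unligated, Cd63 without the unligated one, and Cd81 and Cd82 without either replicate 2. Ocstamp also turned without either library of LSD1WT or LSD1cKO mandible or without unligated femur LSD1cKO replicate 2, and Cd82 without unligated femur LSD1cKO replicate 1. Cd9 kept its direction over the 3 cultures in all 21 alternatives, with adjusted p from 0.0425 to 0.528. Other fitted changes of the members in the femur, site, ligature and interaction comparisons turned direction in 39 of 460 refits and in 60 of 240 with 1 library left out. The mean of log values within cultures, whose exact permutation p did not pass for these 4 genes, was 2.07 for Dcstamp, 2.22 for Ocstamp, 1.55 for Atp6v0d2 and 0.20 for Cd81, opposite in sign to the fit. With whole mice relabelled, an alternative chosen after seeing the data, the exact permutation p of Cd9 went from 0.00926 to 0.0667. Among mice with the same bones cultured it was 0.0556, the smallest p that relabelling can give. The causes were not tested.

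Over the 10 libraries, r with Cd9 turned to -0.76 for Dcstamp, -0.65 for Ocstamp, -0.58 for Atp6v0d2, 0.70 for Cd81, -0.18 for Cd63 and -0.52 for Cd82. Tspan2 passed in all 21 alternatives and Tspan32 in 15, with adjusted p up to 0.0645. Each condition has 2 libraries, and 11 and 27 counts of Dcstamp in the osteoclast-poor libraries make their fold changes imprecise.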
